A study of Homo sapiens with 17 samples.

Results

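The S100 and annexin genes encode 2 protein families that bind partner proteins or membranes, in most cases when calcium rises. They were taken as every gene symbol of the deposited table that is S100A with a number, S100B, S100P, S100Z or S100G, or ANXA with a number, which gave 31 of 27315 genes, 19 of them S100 genes and 12 annexins. These families were chosen by measured values, the S100A6 levels with the 2 guides against USP37, so values of that comparison are given as a description with no test.

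RNA came from 786-O, an established human clear cell renal carcinoma line without functional VHL, the ligase subunit that targets HIF alpha proteins for destruction. All cells, controls included, received a lentivirus (pLenti CRISPR-V2) with Cas9 and a single guide RNA and were kept under antibiotic, and viruses were packaged in 293T cells. The HIF2a experiment has the guides sg4 and sg6 against HIF2a (gene EPAS1) and a scrambled guide, HIF2a sgscr, with 3 libraries each. The USP37 experiment has the guides sg3 and sg9 against the deubiquitinase USP37, with 3 libraries each, and its own scrambled guide, USP37 sgscr, with 2 libraries, numbered 2 and 3. Nothing in the labels ties the libraries of a group to separate cultures or tells whether cells were single clones, so p-values measure the spread between these libraries only, which may be technical.

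S100 proteins are small EF-hand proteins that usually work as dimers: calcium opens a surface that grips a target. Annexins have no EF-hands and instead use a repeated core fold to bind acidic phospholipids in a calcium-dependent way. The families meet in complexes such as S100A10 with ANXA2 and S100A11 with ANXA1, which act in membrane traffic, repair and, for S100A10 and ANXA2, plasminogen activation at the cell surface. Most S100 genes lie side by side in a cluster on chromosome 1, while the annexin genes are scattered over the genome.

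Values are the authors' variance-stabilised, batch-corrected values on a log2-like scale, where 1 unit is about a doubling for well expressed genes. The scale flattens towards a floor, so changes of weakly expressed genes are understated. The values are not per length, so levels are compared between libraries and never between genes. The depth per library is unknown. Genes with a mean of at least 6.14 over the 17 libraries were tested, 12484 in all. A difference was called at a Benjamini-Hochberg adjusted p under 0.05 from limma over all tested genes. In RNA from a cell pool, a change in every cell and a change in the share of cells that carry it cannot be told apart.

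Of the 31 genes, 15 passed this filter: S100A2, S100A3, S100A6, S100A10, S100A11, S100A13 and S100A16, and ANXA1 to ANXA7 with ANXA11. The other 16 genes, 12 S100 genes and 4 annexins (ANXA8, ANXA9, ANXA10 and ANXA13), had means of 5.14 to 5.97, and no library of any of them was above 6.95. Among these were S100A8, S100A9 and S100A12, the calgranulins of myeloid cells, S100A7 of inflamed skin, S100B of glia and S100P, and S100A12, S100G and S100Z held a single value in every library. At the edge of the filter, S100A3 with a mean of 6.30 was just inside and S100A4 with 5.97 just outside. A gene that passed only because it is high in some groups had a better chance to differ, so counts over the 15 describe those genes and not both families.

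Promoters of the 2 S100 genes and the annexin that moved most are printed here for reference: 250 bases before the RefSeq start in GRCh38.p14, on the gene's strand, with matches in capitals. The motifs searched on both strands were ACGTG or GCGTG, the core of the hypoxia response element to which HIF proteins bind, and TGANTCA, the AP-1 site. S100A6 (chr1:153535992-153536241, minus strand) holds 2 hypoxia cores, S100A2 (chr1:153565845-153566094, minus strand) holds 1 hypoxia core followed by 1 AP-1 match, and the downstream start of ANXA4 (chr2:69741884-69742133, plus strand) holds a single palindrome that counts once on each strand.
S100A6: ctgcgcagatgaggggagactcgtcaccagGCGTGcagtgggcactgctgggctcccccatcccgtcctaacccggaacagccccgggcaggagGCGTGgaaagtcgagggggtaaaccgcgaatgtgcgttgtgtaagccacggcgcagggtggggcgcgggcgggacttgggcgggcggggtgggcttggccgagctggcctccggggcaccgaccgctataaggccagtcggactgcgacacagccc
S100A2: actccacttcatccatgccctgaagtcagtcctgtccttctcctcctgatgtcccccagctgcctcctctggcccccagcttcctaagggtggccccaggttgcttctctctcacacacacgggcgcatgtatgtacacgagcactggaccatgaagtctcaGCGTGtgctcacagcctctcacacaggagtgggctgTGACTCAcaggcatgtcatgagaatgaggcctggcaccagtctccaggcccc
ANXA4: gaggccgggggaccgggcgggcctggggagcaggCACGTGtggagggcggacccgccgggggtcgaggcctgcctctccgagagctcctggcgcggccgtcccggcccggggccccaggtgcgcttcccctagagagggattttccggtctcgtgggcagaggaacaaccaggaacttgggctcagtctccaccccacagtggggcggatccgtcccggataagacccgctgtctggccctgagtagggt
The upstream start of ANXA4 and a downstream start of S100A2, which are not printed, held neither motif. Among all 35116 RefSeq windows of that length, 43.21% held the hypoxia core and 6.573% the AP-1 motif. Of the windows at the outermost start of the 15 tested genes, 9 held the hypoxia core and 3 the AP-1 motif. The 35116 windows include more than 1 start for some genes and were not limited to tested genes. These sets are therefore unlike, and no excess is read from them. A match describes letters and not a bound site.

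EPAS1 was lower with the guides against it, at 9.43 to 9.70 with sg4 and 10.11 to 10.48 with sg6, against 11.76 to 12.01 in their control. USP37 was lower with its guides, at 8.04 to 8.43 over the 6 libraries of sg3 and sg9, against 9.15 and 9.33 in their control. EPAS1 was also lower with the USP37 guides, by 0.72 on the log2 scale (SE 0.12, adjusted p = 6.6e-05). USP37 in turn was lower with the HIF2a guides, at -0.44 (SE 0.12, adjusted p = 0.00903). All 8 markers of a renal carcinoma epithelial line were expressed above the filter, with values summing to 88.9 to 92.2 per library. This sum covers opposite changes of single markers. With the HIF2a guides 3 were called higher and 1 lower, beside 30.6% of all tested genes. With the USP37 guides 4 were called higher and 3 lower, beside 44.3%. EPCAM was at 1.47 with the HIF2a guides and -0.65 with the USP37 guides, and CDH16 was at -1.76 with the USP37 guides. Of the marker lists of other cells, 2 of 8 genes of 293T cells (NEFL and SOX2) passed the filter. So did 1 of 10 leukocyte genes (CSF1R) and 1 of 8 keratinocyte genes (KRT10), whereas PTPRC, LIN28B, KRT5 and KRT14 did not. NEFL was lower in both experiments, at -0.70 with the HIF2a guides (SE 0.08, adjusted p = 8.5e-07) and -0.68 with the USP37 guides (SE 0.09, adjusted p = 9.8e-06). SOX2 was not called with the mean of the guides in either experiment. The part of NEFL in the results below was not tested. CSF1R and KRT10 rose with the USP37 guides, by 0.68 (SE 0.14) and 0.69 (SE 0.25) on the log2 scale (adjusted p = 0.000508 and 0.0330), and their part in the results below was not tested. KRT10 differed between these guides, at 0.05 above the control with sg3 and 1.32 above it with sg9, whereas CSF1R was 0.61 and 0.76 above. Replicates 2 and 3 of HIF2a sg6 and replicate 2 of the HIF2a control stood apart from their groups, with a median absolute difference over tested genes from the mean of the other libraries of the group of 0.142 to 0.187 against 0.0896 to 0.134 in the other 14 libraries.

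The first comparison asks which of the genes change when HIF2a is targeted. With the mean of both HIF2a guides, S100A2 fell most, while ANXA3 and S100A6 rose, and S100A10, S100A11 and ANXA4 fell to a smaller extent. Of the 15 tested genes 8 were called, 3 higher and 5 lower, beside 30.6% of all tested genes (16.1% higher and 14.5% lower). The median change of the 15 was -0.07, against -0.00 for all tested genes. With sg4 alone 5 of the 15 were called, beside 25.3% of all tested genes, and with sg6 alone 5, beside 29%.

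S100A2, a nuclear S100 protein of epithelial cells that binds p53, had values of 9.67, 8.80 and 9.62 in the HIF2a control. With sg4 the values were 8.00, 8.37 and 8.36, and with sg6 they were 7.86, 8.16 and 7.52. All 6 guide libraries were below all 3 controls, replicate 2 of the control being the lowest of the controls. The fall was 1.32 on the log2 scale (SE 0.17, adjusted p = 2.12e-06), and each guide alone was called, at -1.12 for sg4 and -1.52 for sg6 (adjusted p = 0.000125 and 2.78e-06).

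S100A6, or calcyclin, which binds the ubiquitin-ligase adaptor CACYBP and several annexins, had values of 12.22, 11.52 and 12.44 in the HIF2a control. It had 12.88, 13.10 and 12.84 with sg4, and 12.46, 12.92 and 12.18 with sg6. The sg4 libraries were all above the controls, whereas those of sg6 overlapped them. The mean of the guides rose by 0.67 (SE 0.15, adjusted p = 0.00176), a 1.59-fold increase; sg4 alone was called at 0.88 (adjusted p = 0.000632), and sg6 alone was at 0.46 (adjusted p = 0.0530). Replicate 2 of the control, the lowest S100A6 value of all 17 libraries, weighs on this size: without it the rise was 0.40 (adjusted p = 0.0255), and without all 3 libraries that stood apart it was 0.37 (adjusted p = 0.00460).

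S100A10, the partner that does not need calcium to hold ANXA2, had values of 12.42, 11.99 and 12.57 in the HIF2a control. The sg4 libraries had 12.10, 12.17 and 12.01 and the sg6 libraries 11.68, 11.97 and 11.26. Libraries of sg4 lay within the range of the controls, and those of sg6 lay below it. The mean of the guides fell by 0.47 (SE 0.12, adjusted p = 0.00548), a call lost without replicate 3 of the control (adjusted p = 0.0597).

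S100A11, the partner of ANXA1, had values of 12.38, 11.96 and 12.51 in the HIF2a control, 12.03, 11.98 and 11.78 with sg4, and 11.59, 11.93 and 11.23 with sg6. The lowest control library lay among the sg4 libraries. The fall was 0.53 (SE 0.13, adjusted p = 0.00341), and sg6 alone was called at -0.71 (adjusted p = 0.00113). For S100A10 and S100A11, then, the guide with the lower values was sg6, whereas for S100A6 the larger rise was with sg4.

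The other tested S100 genes were not called. S100A13, which takes part in the release of growth factors without a signal peptide, had 9.45, 9.11 and 9.62 in the HIF2a control, 9.34, 9.33 and 9.26 with sg4 and 9.27, 9.45 and 8.90 with sg6, a difference of -0.14 (adjusted p = 0.392). S100A16 had 10.77, 10.69 and 10.99 in the control, 10.87, 10.75 and 10.70 with sg4 and 10.72, 10.97 and 10.47 with sg6, a difference of -0.07 (adjusted p = 0.644). In both genes the 3 groups overlapped. S100A3 stayed between 5.93 and 6.35 in these 9 libraries, near the floor.

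Among the annexins, ANXA3, known for a role in vesicle and granule fusion, had values of 8.22, 8.18 and 8.43 in the HIF2a control. It had 9.22, 9.07 and 8.91 with sg4 and 8.88, 9.05 and 8.53 with sg6. All guide libraries were above all controls. The rise was 0.67 (SE 0.11, adjusted p = 0.000119), a 1.59-fold increase, and both guides alone were called, at 0.79 and 0.54 (adjusted p = 0.000114 and 0.00378). ANXA3 and S100A2 were the 2 of 15 genes called in the same direction with each guide, beside 16.5% of all tested genes.

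ANXA4, an annexin of epithelial and secretory membranes, had values of 12.80, 12.32 and 12.51 in the HIF2a control, 12.18, 11.86 and 11.76 with sg4, and 12.25, 12.31 and 12.24 with sg6. The guide libraries were all below the controls, the nearest pair by 0.01. The fall was 0.44 (SE 0.12, adjusted p = 0.00832), and it was not called without replicate 1 of the control (adjusted p = 0.103). Guide sg4 alone was called, at -0.61 (adjusted p = 0.0026), and sg6 alone, at -0.28, was not (adjusted p = 0.149).

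ANXA6, the annexin with a doubled core that links membranes to actin, had 12.74, 12.85 and 12.72 in the control, 12.89, 12.86 and 12.89 with sg4 and 13.01, 13.09 and 13.09 with sg6. It rose by 0.20 (SE 0.07, adjusted p = 0.0284), with the lowest guide library just above the highest control. Guide sg6 alone was called for ANXA6, at 0.29 (adjusted p = 0.00712), and sg4 alone, at 0.11, was not (adjusted p = 0.344). ANXA11, which tethers RNA granules to lysosomes, lay between 10.68 and 10.78 with sg4, 10.93 and 11.24 with sg6 and 11.06 and 11.17 in the control, and fell by 0.23 (SE 0.08, adjusted p = 0.0367). Guide sg4 alone was called for ANXA11, at -0.39 (adjusted p = 0.00428), and sg6 alone, at -0.08, was not (adjusted p = 0.591). Over the mean of the guides ANXA6 and ANXA11 are small calls near the threshold: ANXA6 lost its call in 6 and ANXA11 in 11 of 27 alternative analyses.

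The 3 annexins printed here for their high values, and ANXA7, were not called. ANXA2, which organises membrane and actin and forms the plasminogen receptor with S100A10, had 14.65, 14.43 and 14.61 in the HIF2a control, 14.70, 14.74 and 14.69 with sg4 and 14.36, 14.58 and 14.16 with sg6 (difference -0.03, adjusted p = 0.850). ANXA1, the glucocorticoid-induced annexin that signals through formyl peptide receptors, had 12.73, 12.30 and 12.61 in the control, 12.65, 12.58 and 12.47 with sg4 and 12.38, 12.70 and 12.15 with sg6 (difference -0.06, adjusted p = 0.733). ANXA5, the annexin used to stain exposed phosphatidylserine, had 13.13, 12.95 and 13.02 in the control, 13.17, 13.05 and 13.02 with sg4 and 12.96, 13.14 and 12.84 with sg6 (difference -0.00, adjusted p = 0.973). For ANXA1 and ANXA5 the libraries of each guide overlapped the controls. For ANXA2 the sg4 libraries were all above the controls and those of sg6 overlapped them, with differences of 0.15 and -0.20 that were not called. ANXA7 had 11.00, 10.84 and 10.97 in the control, 10.91, 10.87 and 10.88 with sg4 and 10.79, 10.93 and 10.54 with sg6 (difference -0.12, adjusted p = 0.323).

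**Figure D1:**
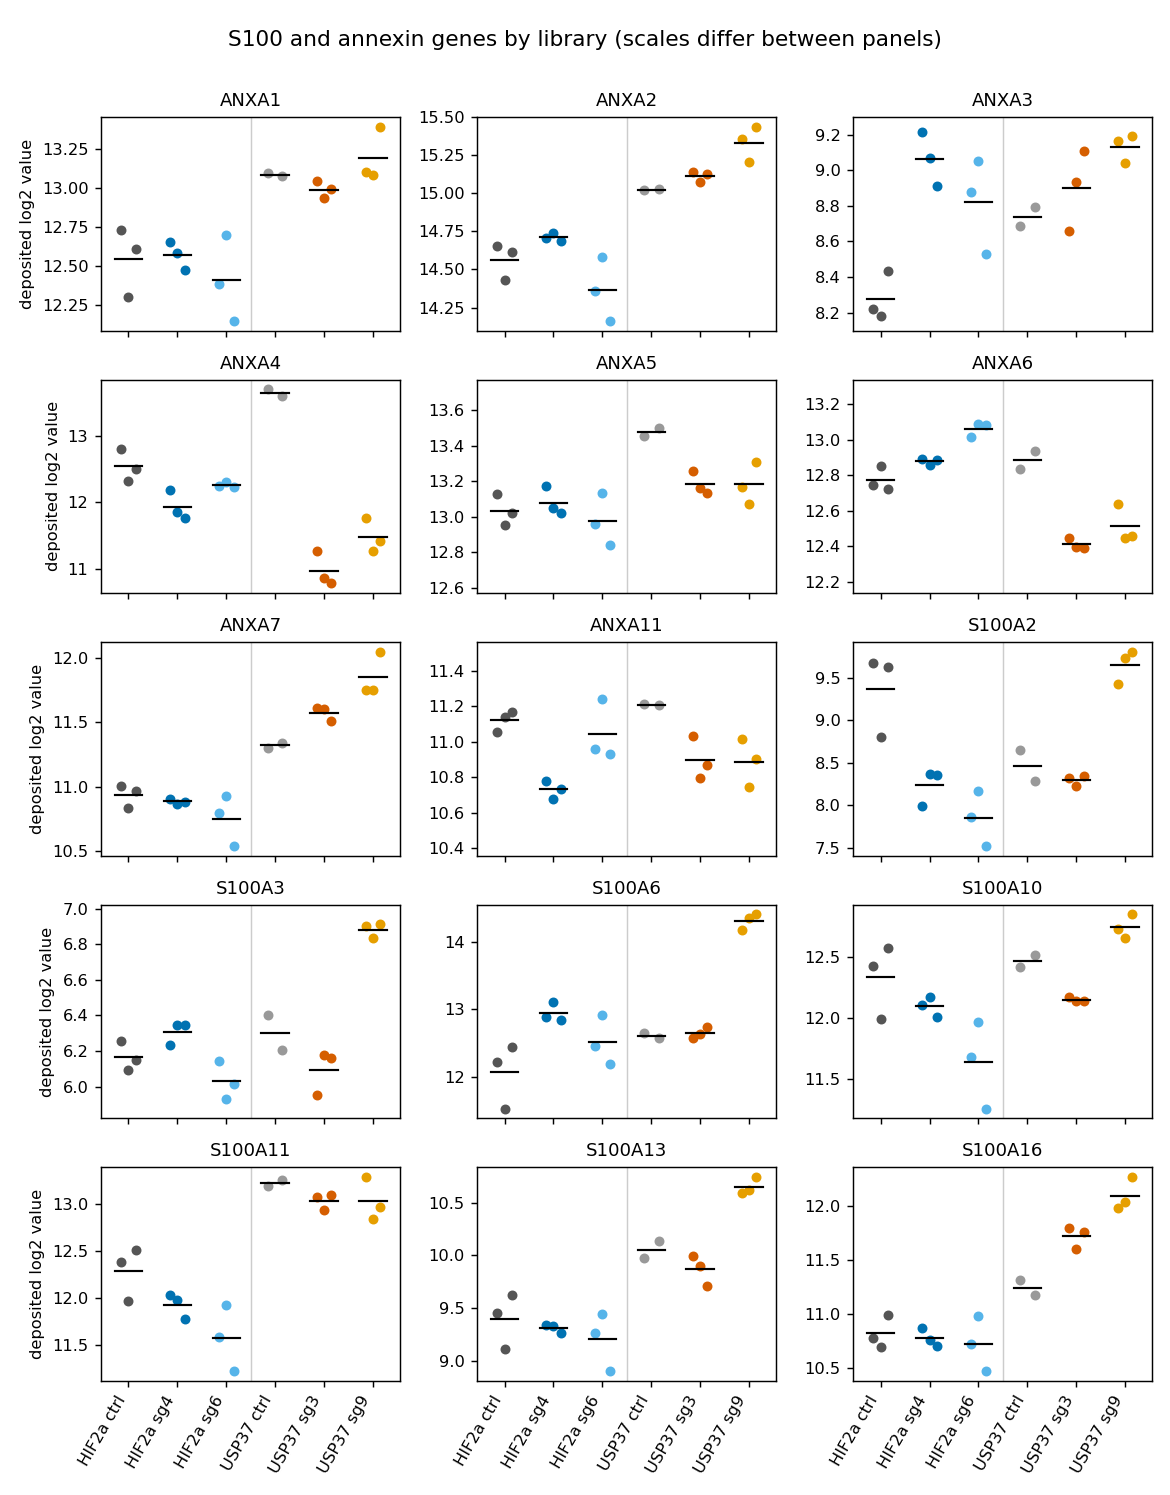
Each panel plots 1 of the 15 tested genes, with a point for each of the 17 libraries in 6 groups, a bar for the group mean and the deposited log2 value on the vertical axis, whose scale differs between panels. In the HIF2a experiment S100A2 lies below and ANXA3 above its control in all guide libraries, in the USP37 experiment ANXA4 lies below its control in all guide libraries, and S100A6 stands at 14.18 to 14.41 with USP37 sg9.

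Between the HIF2a guides, the comparison of sg6 with sg4 called 3 of the 15 genes, 1 higher and 2 lower, beside 9.22% of all tested genes (4.86% higher and 4.36% lower). ANXA2 was lower with sg6 by 0.34 (adjusted p = 0.0321), S100A10 was lower by 0.46 (adjusted p = 0.0436) and ANXA11 was higher by 0.31 (adjusted p = 0.0434), all from limma. ANXA2 and S100A10, the members of 1 complex, had lower values with the same guide, where EPAS1 was at 10.34 against 9.54 with sg4. Under 27 alternative analyses the calls of ANXA2, ANXA11 and S100A10 were lost in 10, 16 and 18, and without replicate 3 of sg6 the S100A10 difference was -0.27 (adjusted p = 0.213). S100A6 was lower with sg6 by 0.42, which was not called (adjusted p = 0.138).

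The next comparison asks the same of USP37. With the mean of both USP37 guides, ANXA4 fell furthest, S100A16, S100A2 and ANXA7 rose, and ANXA5, ANXA6 and ANXA11 fell. Leaving out S100A6, whose USP37 values led to the choice of the genes, 7 of 14 tested genes were called, 3 higher and 4 lower, beside 44.3% of all tested genes (22.4% higher and 21.9% lower). The median change of the 14 was 0.09, against 0.01 for all tested genes.

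ANXA4 had values of 13.70 and 13.61 in the USP37 control. With sg3 it had 11.27, 10.86 and 10.78, and with sg9 11.76, 11.27 and 11.42. Every guide library was below both controls. The change was -2.43 on the log2 scale (SE 0.14, adjusted p = 1.65e-10), a 5.38-fold decrease, and sg3 and sg9 alone gave estimates of -2.69 and -2.17. Under all 27 alternative analyses the change stayed between -2.54 and -2.37.

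ANXA6 had 12.84 and 12.94 in the USP37 control, 12.45, 12.40 and 12.39 with sg3 and 12.64, 12.45 and 12.46 with sg9, a fall of 0.42 (SE 0.08, adjusted p = 0.000167). ANXA5 had 13.46 and 13.50 in the control, 13.26, 13.16 and 13.13 with sg3 and 13.17, 13.07 and 13.31 with sg9, a fall of 0.29 (SE 0.09, adjusted p = 0.0113). ANXA11 was at 11.20 and 11.21 in the control and between 10.75 and 11.03 with the guides, a fall of 0.31 (SE 0.10, adjusted p = 0.0106). The guide libraries of all 3 genes were below both controls. The ANXA11 call was lost when either control library was left out (adjusted p up to 0.0789), and so was that of ANXA5, which also was at -0.19 and not called when chromosome medians were taken out.

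ANXA7, or synexin, an annexin of membrane fusion, had 11.30 and 11.34 in the USP37 control, 11.61, 11.60 and 11.51 with sg3 and 11.75, 11.75 and 12.04 with sg9. It rose by 0.39 (SE 0.10, adjusted p = 0.00293), with all guide libraries above both controls. ANXA3, which rose with the HIF2a guides, had 8.69 and 8.79 in the USP37 control, 8.66, 8.93 and 9.11 with sg3 and 9.17, 9.04 and 9.19 with sg9, a difference of 0.28 that was not called (adjusted p = 0.0964).

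S100A16, a widely expressed S100 protein linked to fat cell differentiation, had 11.31 and 11.17 in the USP37 control, 11.79, 11.60 and 11.76 with sg3 and 11.98, 12.04 and 12.27 with sg9. The rise was 0.66 (SE 0.11, adjusted p = 0.000104), a 1.58-fold increase, with all 6 guide libraries above both controls. S100A2 rose by 0.51 over both guides (SE 0.19, adjusted p = 0.0346), but its guides were unlike: the control had 8.65 and 8.28, sg3 had 8.33, 8.23 and 8.34, and sg9 had 9.43, 9.73 and 9.80. The sg3 libraries overlapped the controls. The call was lost in 6 of 27 alternative analyses, and without replicate 3 of the control the value was 0.33 (adjusted p = 0.339).

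Other tested genes were not called with the USP37 guides. ANXA2 had 15.02 and 15.03 in the control, 15.14, 15.07 and 15.13 with sg3 and 15.36, 15.21 and 15.44 with sg9 (difference 0.20, adjusted p = 0.110). ANXA1 had 13.09 and 13.08 in the control, 13.04, 12.93 and 12.99 with sg3 and 13.10, 13.08 and 13.39 with sg9 (difference 0.00). S100A11 had 13.18 and 13.25 in the control, 13.07, 12.94 and 13.09 with sg3 and 13.28, 12.83 and 12.97 with sg9 (difference -0.19, adjusted p = 0.329). The ANXA2 libraries of both guides were above the controls, and those of ANXA1 and S100A11 overlapped them.

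**Figure D2:**
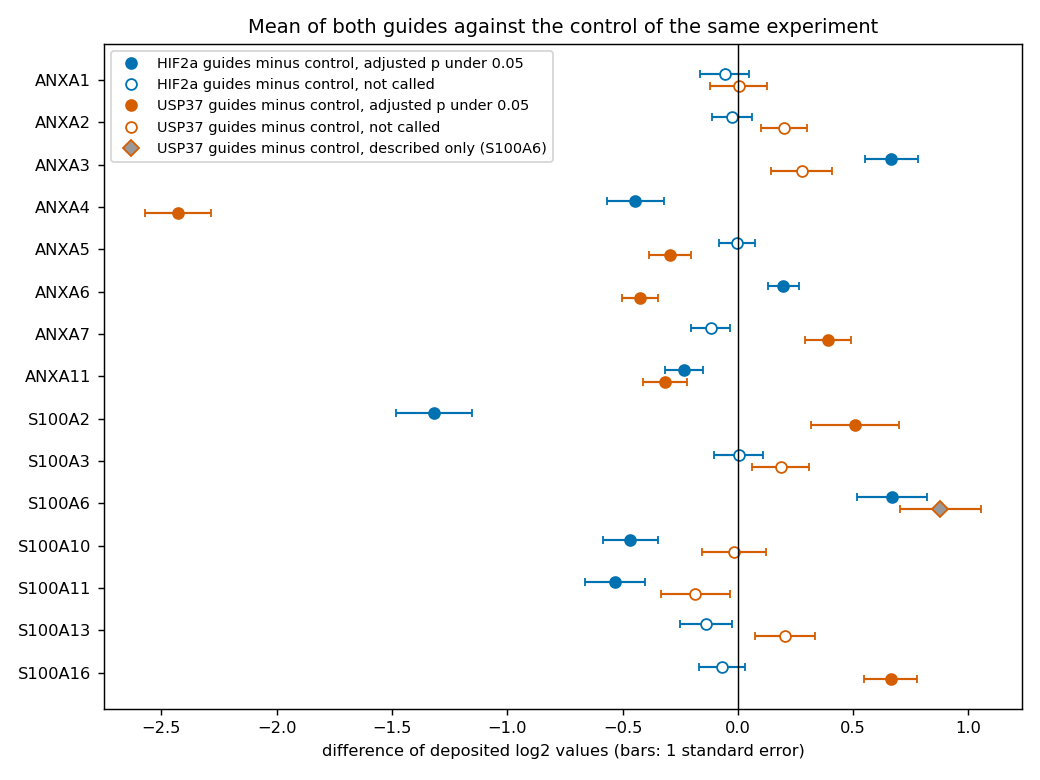
Points give the difference between the mean of both guides and the control of the same experiment for each of the 15 tested genes, in log2 units, with bars of 1 standard error, blue for HIF2a and orange for USP37, filled where the adjusted p was under 0.05 and as a grey diamond where the value is a description. ANXA4 with the USP37 guides lies farthest to the left at -2.43, followed by S100A2 with the HIF2a guides at -1.32.

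Most of the tested S100 genes had higher values with USP37 sg9 than with sg3, and these values are a description with no test. S100A6 had 12.65 and 12.57 in the USP37 control, 12.58, 12.63 and 12.74 with sg3, and 14.18, 14.36 and 14.41 with sg9. The group means were 12.61 ± 0.06 (SD, n = 2), 12.65 ± 0.08 (SD, n = 3) and 14.32 ± 0.12 (SD, n = 3). Guide sg3 was thus 0.04 above the control and sg9 1.71 above it, and the guides stood 1.67 apart, a 3.18-fold difference. The mean of both guides, at 0.88 above the control, lies between a guide at the control's level and a guide far above it. No library of the HIF2a experiment reached the sg9 values, the highest being 13.10. The keratinocyte marker KRT10 had the same order, with 9.06 and 9.06 in the control, at most 9.28 with sg3 and 10.33, 10.47 and 10.33 with sg9. The 8 keratinocyte markers summed to 44.9 to 45.6 with sg3, 46.0 to 46.7 with sg9 and 44.9 to 46.0 in the control. KRT10 alone was higher with sg9 than with sg3, by 1.26. The others were under the filter: KRT5 and TP63 were at -0.18 and -0.07, and KRT14, KRT1, DSG3, LOR and IVL did not differ between these guides. The part of these markers in the S100A6 values was not tested.

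Of the 7 tested S100 genes 6 had this order of guides, to different extents. S100A2 was 0.17 below the control with sg3 and 1.19 above it with sg9. S100A13 had 9.97 and 10.14 in the control, 9.99, 9.90 and 9.71 with sg3 and 10.59, 10.62 and 10.74 with sg9, so that sg3 was 0.19 below the control and sg9 0.60 above. S100A10 had 12.41 and 12.51 in the control, 12.17, 12.14 and 12.14 with sg3 and 12.73, 12.65 and 12.84 with sg9, on either side of the control. In each of these genes the sg9 libraries were all above those of sg3.

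S100A3 was at 5.95 to 6.18 with sg3, 6.20 and 6.40 in the control and 6.83 to 6.91 with sg9, so the change is large for a gene so near the floor. S100A4, the metastasis-associated S100 protein that binds non-muscle myosin, was under the filter, with means of 6.06 with sg3, 6.77 with sg9 and 5.82 in the control. S100A16 was above the control with both guides, by 0.47 with sg3 and 0.85 with sg9. S100A11 was the tested S100 gene without this order, with a difference of -0.00. Of the S100 genes under the filter, S100A8, S100A9 and S100P had differences of -0.08, -0.14 and -0.10, and S100A12, S100G and S100Z of exactly 0.

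Over the tested genes, all sg9 libraries were above all sg3 libraries in 9 of 15, namely 6 of 7 S100 genes and 3 of 8 annexins, and in none were they all below. Of all tested genes 22.5% had sg9 wholly above and 20.2% wholly below. The median difference between the guides was 0.78 for the tested S100 genes, 0.21 for the annexins and 0.01 for all tested genes. These figures describe what led to the choice of the genes and are read no further. The largest annexin difference between guides was that of ANXA4, at 0.52, where both guides were far below the control, followed by ANXA7 at 0.27.

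In the RefSeq order of chromosome 1 the S100 genes run from S100A10 and S100A11 through the skin barrier genes to S100A9, S100A12, S100A8, S100A7, S100A6, S100A5, S100A4, S100A3, S100A2, S100A16, S100A14, S100A13 and S100A1. All 9 neighbours from S100A6 to S100A1 had a positive difference between sg9 and sg3, from 0.03 for S100A14 to 1.67 for S100A6, and before them S100A7 was at 0.10, S100A8 at -0.08, S100A12 at 0 and S100A9 at -0.14. Of all 12484 tested genes 6463 had a positive difference. That share covers tested genes only, whereas S100A5, S100A4, S100A14 and S100A1 were under the filter. In S100A5, S100A14 and S100A1 the libraries of both guides overlapped. The run includes S100A6, whose difference led to the choice of the genes, and is read no further. The genes with the highest differences in that run, S100A6, S100A2, S100A3, S100A13 and S100A4, were interspersed with S100A5 at 0.29 and S100A16 at 0.38. Of the 51 other genes in the interval, which include the S100 genes S100A7A and S100A7L2 that the symbol rule left out, FLG was the only one that passed the filter, and its difference was -0.72. Beyond the ends of the cluster, in genes looked up after the values were seen, 4 of the 5 nearest tested genes after S100A1 and 3 of the 5 before S100A10 were positive, from -0.22 to 0.64 and from -0.35 to 0.25.

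**Figure D3:**
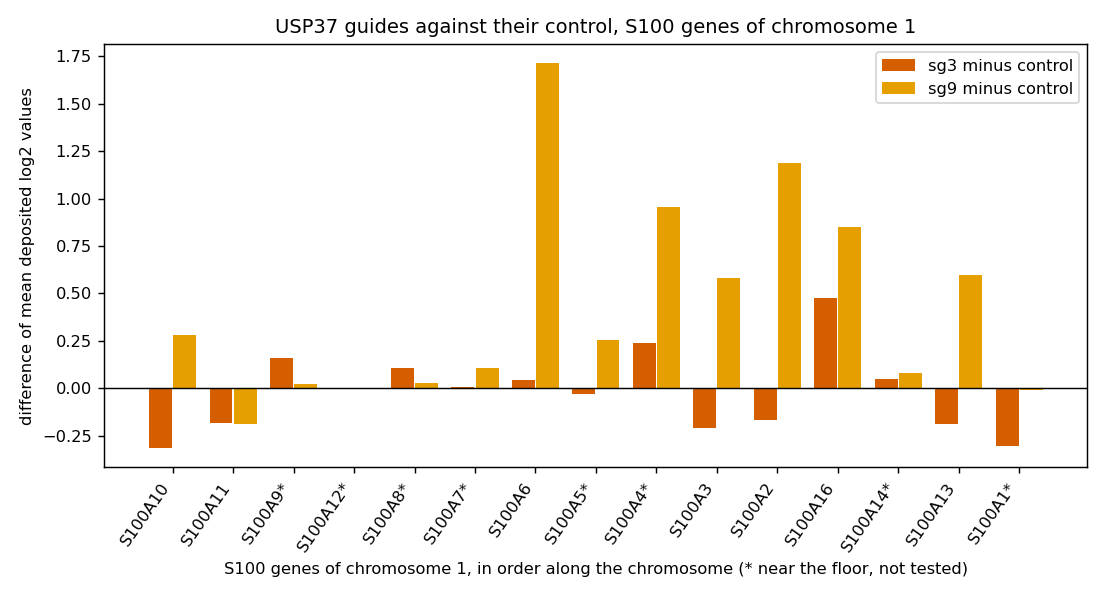
Bars give the difference of the mean deposited log2 value from the USP37 control for sg3 (dark orange) and sg9 (light orange) in the 15 S100 genes of chromosome 1, in chromosomal order, with an asterisk on genes near the floor that were not tested. The sg9 bar exceeds the sg3 bar in every gene from S100A6 to S100A1, with S100A6 at 1.71 against 0.04.

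Some of these neighbours share transcribed sequence. S100A1 and S100A13 overlap, as do S100A4 and S100A5, and the library kit named in the labels does not mark strand, so reads from the shared parts cannot be assigned by strand. ANXA2 has processed pseudogenes, of which ANXA2P2 was near the floor at means of 5.59 to 5.91, and the untested ANXA8 has a near-identical copy, ANXA8L1, so these values are uncertain where reads could be split between copies.

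The scrambled controls of the experiments were compared because both experiments are read against them, and here control and experiment cannot be told apart. The USP37 control was higher than the HIF2a control in 10 of the 15 genes and lower in 1, beside 40.5% of all tested genes called (20.1% higher and 20.4% lower). The median difference was 0.44 over the 15 genes and 0.01 over all tested genes. The largest were ANXA4, at 1.11 (SE 0.16, adjusted p = 1.54e-05), S100A11, at 0.93 (adjusted p = 0.000192), and S100A13, at 0.66 (adjusted p = 0.00120).

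S100A2 went the other way, at -0.90 (adjusted p = 0.00211), a call lost without replicate 3 of the USP37 control (adjusted p = 0.0539). ANXA1 and ANXA2 differed by 0.54 and 0.46 (adjusted p = 0.00381 and 0.00245), although neither was called in the mean of the guides against their control in either experiment. With chromosome medians taken out the ANXA2 difference was 0.30 and not called (adjusted p = 0.0505). S100A6 differed by 0.55 (adjusted p = 0.0300), a value that fell to 0.28 without replicate 2 of the HIF2a control (adjusted p = 0.183). ANXA6, ANXA11, S100A3 and S100A10 were not called. Levels in the HIF2a and USP37 libraries are therefore compared below only through the difference of each from its own control.

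**Figure D4:**
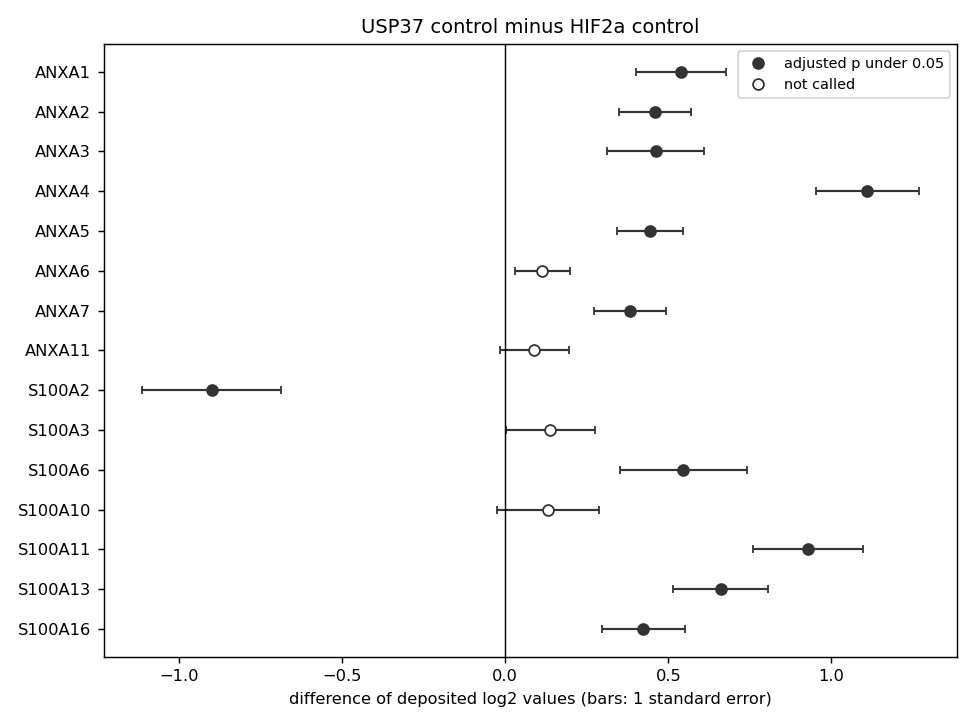
Points give the USP37 control minus the HIF2a control for each of the 15 tested genes, in log2 units, with bars of 1 standard error, filled where the adjusted p was under 0.05. All genes but S100A2 lie to the right of 0, and ANXA4 lies farthest at 1.11.

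The effects of the USP37 and HIF2a guides, which share no library, were compared by the difference between them. That difference was called in 5 of the 15 genes, 3 higher and 2 lower, beside 38.6% of all tested genes (19.6% higher and 19% lower). ANXA4 fell further with the USP37 guides by 1.98 (SE 0.19, adjusted p = 5.65e-08). S100A2 fell with the HIF2a guides and rose with the USP37 guides, a difference of 1.83 (SE 0.25, adjusted p = 9.61e-06). ANXA6 rose with HIF2a and fell with USP37, a difference of -0.62 (SE 0.10, adjusted p = 6.69e-05).

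S100A16 and ANXA7 were called in the USP37 experiment and not in the HIF2a experiment, and their differences were 0.73 (SE 0.15, adjusted p = 0.000717) and 0.51 (SE 0.13, adjusted p = 0.00402). ANXA11 fell in both experiments by the mean of the guides, though of the HIF2a guides alone sg4 was called and sg6 was not. Its difference of -0.08 (SE 0.13) was not called (adjusted p = 0.636). The mean of the guides for S100A6 was above its control in both, with 0.88 for the USP37 guides and 0.67 for the HIF2a guides. The USP37 figure averages unlike guides, at 0.04 with sg3 and 1.71 with sg9. The HIF2a figure was 0.40 without replicate 2 of its control. The USP37 values of S100A6 led to the choice of the genes, so no test of the difference between its effects is read. S100A6 is counted among the 15 genes of this comparison and not among the 5 called.

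Genes that work with these proteins were counted from lists chosen with earlier results of these data known. Of 21 partners and receptors 17 were tested: 4 rose and 3 fell with the HIF2a guides, with a median of 0.09, and 8 rose and 2 fell with the USP37 guides, with a median of 0.30, that is 7 and 10 of 17 called beside 30.6% and 44.3% of all tested genes. PLAT, tissue plasminogen activator, which binds the ANXA2 and S100A10 complex, rose by 1.29 (SE 0.12) with HIF2a and 0.67 (SE 0.14) with USP37. PLAU, urokinase, rose by 0.56 and 0.86, and its receptor PLAUR rose by 0.97 with the USP37 guides (SE 0.13) and was at 0.08 with HIF2a, not called. MDM2, the p53 ligase that S100 proteins can bind, fell by 0.99 with HIF2a (SE 0.09).

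AHNAK, the giant scaffold held by ANXA2 and S100A10, rose by 0.57 over both USP37 guides (SE 0.18, adjusted p = 0.0152), a mean of unlike guides: it was 0.91 above the control with sg3 and 0.23 above it with sg9, whose lowest library, 13.79, lay between the controls at 13.75 and 13.99. With the HIF2a guides FPR1, a receptor for ANXA1, rose by 0.53 (SE 0.11, adjusted p = 0.00113).

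Of 32 other EF-hand genes 26 were tested, and 5 rose and 3 fell with HIF2a (median -0.00) while 4 rose and 6 fell with USP37 (median -0.03), that is 8 and 10 of 26 beside 30.6% and 44.3%. EFHD1, a mitochondrial EF-hand protein, rose by 1.36 with HIF2a (SE 0.11), and its relative EFHD2 fell by 0.88 with HIF2a and rose by 0.63 with USP37. NUCB1, the Golgi calcium buffer, rose by 0.35 with HIF2a and fell by 0.47 with USP37, and NUCB2 fell by 0.68 with USP37.

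Of 22 other genes of calcium-dependent membrane binding and repair found in the table, 13 were tested. With HIF2a 6 of them were called beside 30.6% of all tested genes, 3 higher and 3 lower (median -0.04), among them DYSF, the membrane repair protein dysferlin, which fell by 0.60 (SE 0.12), and EHD1, which rose by 0.45. With USP37 7 were called beside 44.3%, 4 higher and 3 lower (median -0.06): VPS4A, the ESCRT ATPase, rose by 0.65, CAV1 by 0.60, EHD1 by 0.55 and PTRF, the caveola coat protein cavin-1, by 0.52. Of 7 genes that fuse an S100 domain to long repeats, FLG, the filaggrin gene inside the S100 cluster, was the 1 tested, and it fell by 4.05 with HIF2a and rose by 0.78 with USP37, while its difference between the controls, USP37 minus HIF2a, was -2.93.

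Near the floor, a fit without the filter called a few of the 16 untested genes. S100A12, S100G and S100Z, with a single value each, were not in that fit. The share of all genes called there is not given here, so the number of calls is not read further. With the HIF2a guides ANXA10 fell by 0.38 (adjusted p = 0.0263) and ANXA8 rose by 0.31 (adjusted p = 0.0213). ANXA8 was called with sg4, at 0.46 (adjusted p = 0.00564), and not with sg6, at 0.17 (adjusted p = 0.317). ANXA10 was called with sg6, at -0.42 (adjusted p = 0.0358), and not with sg4, at -0.34 (adjusted p = 0.0964). With the USP37 guides S100A4 rose by 0.60 (SE 0.15, adjusted p = 0.00527), a mean of unlike guides: sg3 was 0.24 and sg9 0.95 above the control. ANXA13 was also called, at -0.37 (adjusted p = 0.0330), but its control libraries had 5.85 and 5.18 and its guide libraries 5.12 to 5.18, so that 1 control library carries the difference. On this scale such values do not translate into folds.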

How the data were processed

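RNA-seq of 786-O cells in 17 libraries was used, grouped by the treatment label. The authors deposited 1 table of log2 values for 27315 gene symbols, variance-stabilised and batch-corrected according to the table's name. Per the submitters' processing notes, the tools were STAR 2.5.2b, Salmon, cutadapt and DESeq2 and the build hg19, with no roles. For the batch variable and annotation, the sources used here say nothing. For every gene the means over libraries numbered 1, 2 and 3 differed by at most 6.39e-14, which shows that the number's term had been removed, and p-values of the fit, with 11 residual degrees of freedom, tend to be too small (9 with the term). No USP37 control library is numbered 1, so equal means can also shift the number 1 libraries where that control differs from the other groups. In ANXA4 the number 1 library was the highest of the HIF2a control, HIF2a sg4, USP37 sg3 and USP37 sg9, but not of HIF2a sg6. Differences from the USP37 control and the spread within groups can carry such a shift. Counts cannot be recovered, so depth is unknown and no interval for counting error is given.

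The 6 group means were fitted in 1 model with limma 3.58.1 in R 4.3.3 (empirical Bayes, mean-variance trend), on genes whose mean exceeded the 1st percentile of all gene means by 1 log2 unit or more. Adjusted p-values are Benjamini-Hochberg over all 12484 tested genes of a contrast, and the fit was tested on simulated data. USP37 sg9 and sg3 were compared with no test. The members and gene lists were chosen with earlier results of these data known. Library values are printed for S100A6, for members called with a change of at least 0.5 (at most 6 a contrast) and for the 3 annexins and 3 S100 genes with the highest means. Of each list at most 4 called genes are named per experiment. Alternatives were a replicate block, each experiment fitted alone, other filters, no trend, robust moderation, array weights, library or chromosome medians taken out, and leaving out libraries. RefSeq tables of GRCh38.p14 gave gene order and promoters. Columns of all 17 libraries were mapped by title.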

Additional observations from a re-analysis of the deposited data

Results flagged for a closer look

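For 5 genes the effect of the USP37 guides differed from the effect of the HIF2a guides by a test of the difference itself (limma, adjusted over all tested genes). The differences were -1.98 for ANXA4, -0.62 for ANXA6, 0.51 for ANXA7, 1.83 for S100A2 and 0.73 for S100A16, each called under all 26 alternative analyses that gave it. ANXA4 fell in both experiments, from control means of 12.54 with HIF2a and 13.65 with USP37. ANXA6 and S100A2 were called in opposite directions. The ANXA6 call with the HIF2a guides and the S100A2 call with the USP37 guides were each lost in 6 of 27 alternatives. For S100A2 the USP37 value averages unlike guides, at -0.17 with sg3 and 1.19 with sg9.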

How the results depend on the processing

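Of the 45 calls made on these genes over 7 contrasts, 28 held under every alternative (27 of 44 without S100A6 with the USP37 guides, whose values led to the choice of the genes), and none reversed its direction. The genes called with the HIF2a guides numbered 8, 6 with the replicate block and 5 to 8 when a library was left out (5 without replicate 1 or 3 of the control). With the USP37 guides they numbered 8, 8 with the replicate block and 5 to 8 when a library was left out (5 without replicate 3 of the control), each count including S100A6; without it they numbered 7, 7 and 4 to 7. Between HIF2a sg6 and sg4 the count of 3 became 0 with the replicate block, 0 with each experiment fitted alone, 0 without the filter, 0 with chromosome medians taken out, 1 without the trend, 8 with array weights and 0 to 4 when a library was left out. At an unadjusted p under 0.05 limma gave 8 genes there, and 7, 6, 9 and 7 under the 4 alternatives that called 0. Between the controls the count of 11 became 10 with the block and 7 to 11 when a library was left out (7 without replicate 3 of the USP37 control). The 5 differences between the effects stayed 5 with the block, became 9 with array weights and 10 without the 3 libraries that stood apart, and ran from 5 to 9 when a library was left out (8 without replicate 2 of HIF2a sg6 and 9 without replicate 2 of its control). In the main fit 30.6%, 44.3%, 9.22%, 40.5% and 38.6% of all tested genes were called in these comparisons, in the order given. Shares of all tested genes under each alternative are not set beside these counts. A change in a count therefore cannot be read as particular to these genes. The cause of the changes in the counts was not tested. Deviations of same-numbered libraries correlated at -0.547 to 0.222, with 5 of 16 pairs over 0.1 and 3 of 17 libraries closest to their own number. Because the replicate-number term had been taken out of the values, these correlations cannot show whether the numbers pair the libraries, and the labels do not say that they do. The depth is unknown, and the floor limits what can be said of the 16 untested genes.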
